A study of Mus musculus with 8 samples.

Results

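The insulin-like growth factor (IGF) system was examined in endometrium laser-captured from uteri of female mice in metestrus. Its 10 genes were chosen by symbol, through the gene identifiers of the count table, as 2 ligands (*Igf1* and *Igf2*), 2 receptors (*Igf1r* and *Igf2r*) and 6 binding proteins (*Igfbp2* to *Igfbp7*). These were 10 of 52325 rows, and 10 of 10 passed the filter on low counts, which kept 18174 genes. The 4 mutant libraries came from Thra1PV/+ mice, which carry the PV mutation of thyroid hormone receptor alpha 1 in 1 allele of *Thra*, and the 4 control libraries came from WT mice. The mutation is a germline knock-in, so every tissue that uses the gene carries it, and its product is a dominant negative receptor. No treatment is named for these libraries. The animals' ages are not given for these libraries in the sources used here. The GEO labels name only uterus as the tissue, and the capture of endometrium is described in the methods of the study. Nothing in the labels says which library came from which animal, so p-values measure the spread between libraries. Library totals lay between 48791602 and 59818887 estimated counts.

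IGF1 and IGF2 are small secreted hormones that signal through the tyrosine kinase receptor encoded by *Igf1r*, while the receptor encoded by *Igf2r* takes up IGF2 and delivers it to lysosomes. The binding proteins hold the ligands outside the cell and can either withhold them from the receptor or carry them to it. In rodent uterus, IGF1 is best known as a stromal product that rises with estrogen and drives division of the neighbouring epithelium, and in several tissues IGF1 production also depends on growth hormone and thyroid hormone. The comparison of genotypes addresses whether transcripts of this system differed in endometrium that carried the mutant receptor.

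RefSeq promoters on assembly GRCm38.p6 were matched for 10 of the 10 genes, in 14 windows that each held the 250 bases before a start site. Those of 5 genes are shown because the values below turn on them. They are *Igf1*, with *Igfbp4*, *Igfbp6* and *Igfbp7*, whose levels moved with it from library to library, and *Igfbp2*, which had the largest positive difference between genotypes. Capitals mark the letters of 3 motifs, each searched on both strands, where a match on the other strand appears as its reverse complement. The first is AGGTCA, the half-site used by both thyroid hormone and estrogen receptors. The second is the core promoter box TATAAA that lies upstream of many regulated start sites. The third is GGGCGG, the box bound by the factor Sp1 at many promoters rich in these letters.
*Igf1* promoter (chr10:87860861-87861110, plus strand): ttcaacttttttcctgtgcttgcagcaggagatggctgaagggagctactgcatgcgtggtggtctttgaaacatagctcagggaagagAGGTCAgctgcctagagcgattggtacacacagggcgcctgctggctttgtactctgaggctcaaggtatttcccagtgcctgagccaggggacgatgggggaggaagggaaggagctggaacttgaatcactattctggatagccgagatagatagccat
*Igfbp2* promoter (chr1:72824230-72824479, plus strand): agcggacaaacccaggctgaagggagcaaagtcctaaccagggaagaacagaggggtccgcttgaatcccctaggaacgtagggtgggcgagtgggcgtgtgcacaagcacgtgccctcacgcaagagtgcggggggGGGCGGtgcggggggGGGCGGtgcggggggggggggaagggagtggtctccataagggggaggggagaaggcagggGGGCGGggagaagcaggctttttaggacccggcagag
*Igfbp4* promoter (chr11:99040994-99041243, plus strand): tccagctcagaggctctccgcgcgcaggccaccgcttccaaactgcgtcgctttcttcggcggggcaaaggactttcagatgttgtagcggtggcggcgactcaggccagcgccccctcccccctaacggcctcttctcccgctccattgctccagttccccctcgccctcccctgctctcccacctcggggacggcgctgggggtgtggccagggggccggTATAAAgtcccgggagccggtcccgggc
*Igfbp6* promoter (chr15:102143936-102144185, plus strand): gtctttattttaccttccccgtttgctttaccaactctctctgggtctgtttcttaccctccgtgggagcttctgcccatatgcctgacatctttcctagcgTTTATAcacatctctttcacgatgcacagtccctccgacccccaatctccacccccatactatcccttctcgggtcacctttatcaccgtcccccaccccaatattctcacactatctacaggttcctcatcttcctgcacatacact
*Igfbp7* promoter (chr5:77408046-77408295, minus strand): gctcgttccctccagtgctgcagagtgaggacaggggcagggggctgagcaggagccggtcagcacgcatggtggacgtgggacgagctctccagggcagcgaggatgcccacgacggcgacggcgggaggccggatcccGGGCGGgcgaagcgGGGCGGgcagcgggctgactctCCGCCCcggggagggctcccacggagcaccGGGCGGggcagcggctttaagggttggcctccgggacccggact
The half-site was found in 4 of the 14 windows (1 each of *Igf1*, *Igf2*, *Igf1r* and *Igf2r*), and 14.0% of 32851 promoter windows of that length held it. The letters of the core promoter box were found in 2 windows, against 12.4% of all windows. They lay on the gene's own strand in *Igfbp4* and on the other strand in *Igfbp6*. The Sp1 box was found in 6 windows, against 32.7% of all windows. Median GC content was 66.6% in the 14 windows and 52.4% in all windows. These matches describe letters in the windows and say nothing about binding of a factor. The start site that RefSeq gives for *Igf1* lies inside the span of the GENCODE gene, and for *Igfbp2* the first of 2 windows is shown.

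None of the 10 genes was called different between genotypes. To be called, a gene needed a change of at least 2-fold and an adjusted p-value of at most 0.1 in edgeR's quasi-likelihood test, with Benjamini-Hochberg adjustment over all tested genes. By that rule 0.99% of all tested genes were called (180 genes, of which 168 were higher in Thra1PV/+ endometrium, 0.924% of those tested, and 12 lower, 0.066%), and 0 of the 10 IGF genes. DESeq2, by the same thresholds, called 3.64% of the 21758 genes it gave an adjusted p-value and 0 of the 10, and limma voom called 1.71% and 0 of the 10. The lowest adjusted p-value among the 10 genes was 0.435 in edgeR. At an unadjusted p-value under 0.05, 2 of the 10 passed, *Igfbp2* with the higher level in Thra1PV/+ endometrium and *Igfbp7* with the lower, and 9.77% of all tested genes did (5.05% higher and 4.72% lower). Of the 10 genes, 2 had a higher and 8 a lower mean in Thra1PV/+ endometrium, with a median log2 fold change of -0.39, where the median over all tested genes was -0.0526 and 43.2% of them were above 0. The libraries of the genotypes overlapped for all 10 genes, while 6.04% of all tested genes had no overlap (3.55% higher and 2.49% lower).

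**Figure D1:**
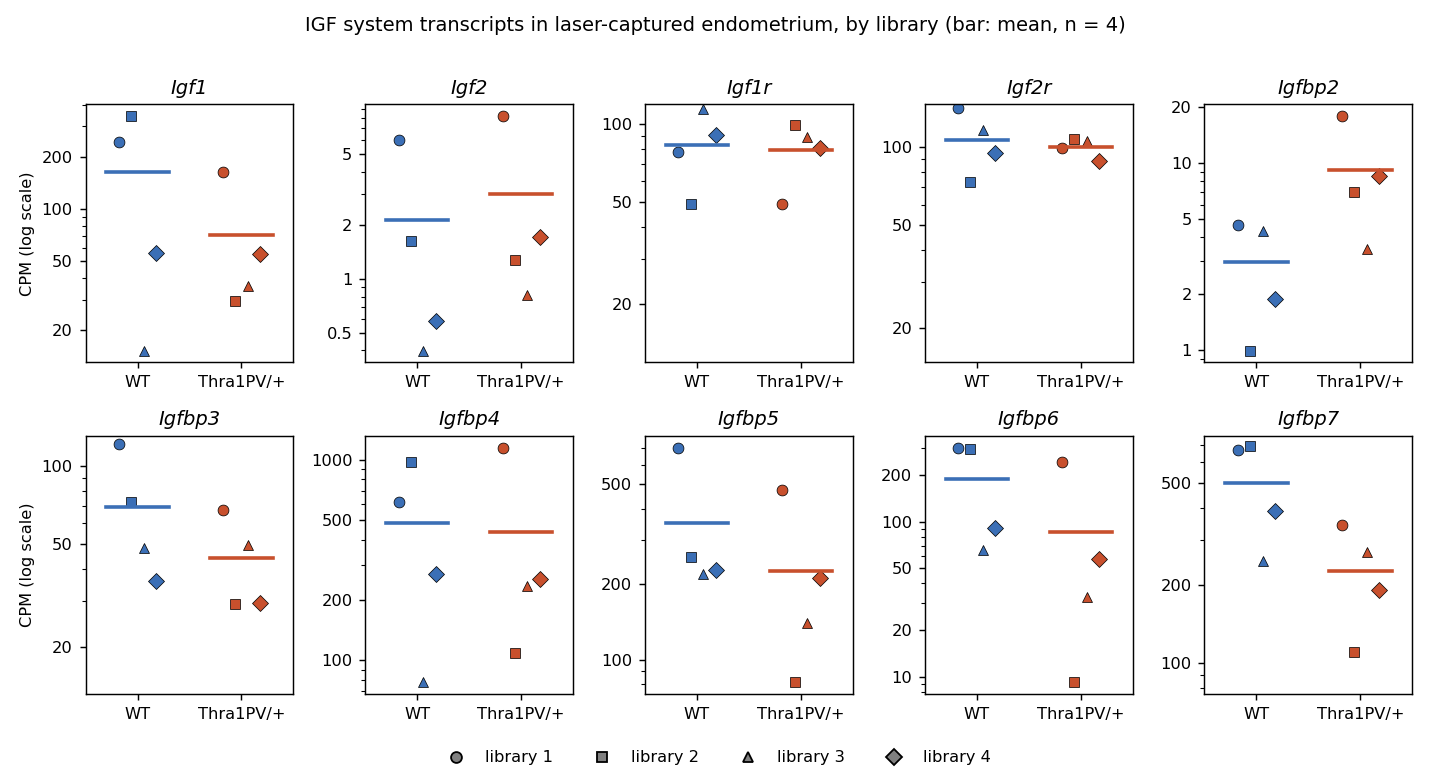
Normalized counts (CPM, log axis) of the 10 IGF system genes in each of the 4 WT (blue) and 4 Thra1PV/+ (orange) libraries, with the symbol giving the library number and the bar the mean. The genotypes overlap in every panel, and Thra1PV/+ library 1 and WT libraries 1 and 2 lie above the other libraries for *Igf1*, *Igfbp4* and *Igfbp6*.

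*Igf1* (ENSMUSG00000020053.18, chromosome 10, 87858265 to 87937042 of GRCm38, plus strand) encodes the main local IGF ligand. In CPM, which are counts scaled to the size of each library, it had 164, 29.6, 35.9 and 55.2 in Thra1PV/+ libraries 1 to 4, and 242, 343, 15.3 and 55.9 in WT libraries 1 to 4. Both the highest and the lowest library were WT, and WT library 4 was level with Thra1PV/+ library 4. Means were 71.2 ± 63.0 CPM (SD, n = 4) in Thra1PV/+ and 164 ± 155 CPM (SD, n = 4) in WT endometrium. Between genotypes the log2 fold change was -1.20 (SE 0.92, 95% interval -3.32 to 0.91, edgeR adjusted p = 0.741). The interval crosses 0, and the difference was smaller than the spread between libraries. Without WT library 2 the log2 fold change was -0.53, and without Thra1PV/+ library 1 it was -1.98. An antisense gene, *Igf1os*, overlaps *Igf1* and had at most 8 counts in a library, against at least 770 of *Igf1*.

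*Igf2* (ENSMUSG00000048583.16, chromosome 7, 142650766 to 142666816, minus strand), the imprinted fetal growth ligand, had the lowest TPM of the 10 genes. Its counts were 446, 63, 40 and 98 in Thra1PV/+ libraries 1 to 4 and 315, 90, 20 and 28 in WT libraries 1 to 4. Library 1 of each genotype stood highest, at 8.19 CPM in Thra1PV/+ and 6.01 CPM in WT endometrium. The log2 fold change of 0.48 (SE 1.01, 95% interval -1.85 to 2.80, edgeR adjusted p = 0.928) changed sign to -0.72 without Thra1PV/+ library 1. A same-strand gene that overlaps *Igf2*, *Gm49394*, had 0 counts in all libraries, and the antisense *Igf2os* had at most 12.

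Both receptors were steady in comparison. *Igf1r* (ENSMUSG00000005533.10, chromosome 7, 67952827 to 68233668, plus strand), which passes on the signal of both ligands, had 48.7, 98.6, 88.6 and 80.8 CPM in Thra1PV/+ libraries 1 to 4 and 78.1, 49.1, 114 and 90.4 CPM in WT libraries 1 to 4. The 2 lowest libraries were one of each genotype. Its log2 fold change was -0.07 (SE 0.29, 95% interval -0.74 to 0.60, edgeR adjusted p = 0.970), so a 2-fold difference in either direction lay outside the interval. The sign was positive with scaling by library size alone (0.03), with limma voom (0.07), and without Thra1PV/+ library 1 or WT library 3 (0.15 in both).

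*Igf2r* (ENSMUSG00000023830.13, chromosome 17, 12682406 to 12769664, minus strand), the clearance receptor for IGF2, was the least variable of the 10 genes. It had 99.8, 108, 106 and 88.9 CPM in Thra1PV/+ libraries 1 to 4 and 142, 73.6, 117 and 95 CPM in WT libraries 1 to 4. All 4 Thra1PV/+ libraries lay within the range of the WT libraries. Its log2 fold change was -0.08 (SE 0.20, 95% interval -0.55 to 0.38, edgeR adjusted p = 0.936), and the sign turned with limma voom (0.03) and without WT library 1 (0.13). The antisense gene *Airn*, which overlaps *Igf2r*, had between 206 and 672 counts.

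*Igfbp2* (ENSMUSG00000039323.18, chromosome 1, 72824503 to 72852474, plus strand), a carrier found in serum and many tissues, had the largest positive difference. Its values were 17.8, 6.98, 3.49 and 8.56 CPM in Thra1PV/+ libraries 1 to 4 and 4.69, 0.993, 4.32 and 1.88 CPM in WT libraries 1 to 4. Of the 4 Thra1PV/+ libraries, 3 lay above all WT libraries, and library 3 lay within the WT range. Means were 9.20 ± 6.09 CPM (SD, n = 4) in Thra1PV/+ and 2.97 ± 1.81 CPM (SD, n = 4) in WT endometrium. The 3.10-fold higher mean level gave a log2 fold change of 1.63 (SE 0.63, 95% interval 0.19 to 3.07, unadjusted p = 0.0306, edgeR adjusted p = 0.445). In the exact permutation test, which is two-sided and runs over 70 arrangements with 0.0286 as its smallest possible value, p was 0.0857. The log2 fold change stayed positive in every fit without 1 library, from 1.14 to 1.98. Its unadjusted p-value was under 0.05 in 14 of 18 alternatives and 0.0507 to 0.0919 in the other 4, limma voom and the edgeR fits without Thra1PV/+ library 1, WT library 2 or WT library 4. Over the same libraries, a list of 8 squamous epithelium markers was summed at 2980 to 4510 CPM in Thra1PV/+ and 1.79 to 58.2 CPM in WT endometrium, with 8 of 8 called higher. With that list *Igfbp2* had Pearson's r = 0.574 over the 8 libraries (permutation p = 0.147, adjusted p = 0.287 over 90 relations). It was 0.691 without the farthest libraries, WT libraries 1 and 4, and -0.421 with the genotype means removed. The part of squamous cells in the *Igfbp2* values was not tested.

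*Igfbp7* (ENSMUSG00000036256.13, chromosome 5, 77349240 to 77408041, minus strand), a secreted protein with low affinity for IGFs that lies in vessel walls and matrix, had the lowest unadjusted p-value of the 10 genes. It had 342, 110, 270 and 192 CPM in Thra1PV/+ libraries 1 to 4 and 671, 693, 248 and 390 CPM in WT libraries 1 to 4. WT library 3 was the 1 WT library inside the Thra1PV/+ range, and the other 3 lay above it. Means were 229 ± 100 CPM (SD, n = 4) in Thra1PV/+ and 501 ± 217 CPM (SD, n = 4) in WT endometrium, so the mean level was 2.19-fold lower. Its log2 fold change was -1.13 (SE 0.43, 95% interval -2.11 to -0.15, unadjusted p = 0.0281, edgeR adjusted p = 0.435, exact permutation p = 0.0857). It ranged from -1.35 to -0.90 when each library was left out in turn. Its unadjusted p-value was under 0.05 in 10 of 18 alternatives and 0.0519 to 0.0858 in the other 8, which were scaling by library size alone, the replicate block, limma on log2 TPM with either pseudocount, and the edgeR fits without Thra1PV/+ library 2 or 4 or WT library 1 or 2. A list of stromal markers also had a lower mean in the mutant libraries (by -1.30 on the log2 scale, exact permutation test, p = 0.171). The relation of *Igfbp7* with that list over the libraries is given below, and the part of stroma in the *Igfbp7* values was not tested. *Polr2b* and the antisense *Gm34648* overlap *Igfbp7* on the opposite strand.

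*Igfbp6* (ENSMUSG00000023046.6, chromosome 15, 102144362 to 102149511, plus strand), which prefers IGF2 over IGF1, varied most within the mutant group. Its values were 242, 9.25, 32.8 and 57.2 CPM in Thra1PV/+ libraries 1 to 4 and 300, 296, 65.4 and 91.4 CPM in WT libraries 1 to 4. Thra1PV/+ library 1 lay near the 2 high WT libraries, and the other 3 Thra1PV/+ libraries lay below all WT libraries. The log2 fold change of -1.14 (SE 0.94, 95% interval -3.28 to 1.0, edgeR adjusted p = 0.761) became -2.46 without Thra1PV/+ library 1 and -0.76 without Thra1PV/+ library 2.

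*Igfbp4* (ENSMUSG00000017493.12, chromosome 11, 99041244 to 99054392, plus strand) encodes an inhibitory carrier whose cleavage frees IGF1. It had 1150, 109, 236 and 255 CPM in Thra1PV/+ libraries 1 to 4 and 615, 974, 77.8 and 269 CPM in WT libraries 1 to 4. Both ranges spanned more than 10-fold, and each lay over most of the other. Its log2 fold change was -0.15 (SE 0.88, 95% interval -2.16 to 1.87, edgeR adjusted p = 0.978). Its sign turned in 5 of the 8 fits without 1 library, whose values ran from -1.23 without Thra1PV/+ library 1 to 0.46 without WT library 2.

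*Igfbp5* (ENSMUSG00000026185.8, chromosome 1, 72857932 to 72874884, minus strand), the most conserved binding protein and a matrix-bound one, had 473, 81.2, 140 and 211 CPM in Thra1PV/+ libraries 1 to 4 and 701, 256, 220 and 228 CPM in WT libraries 1 to 4. Library 1 was the highest of each genotype, and the other 3 Thra1PV/+ libraries lay below all WT libraries. A log2 fold change of -0.63 was found (SE 0.59, 95% interval -1.99 to 0.73, edgeR adjusted p = 0.796), which was -0.02 without WT library 1 and -1.24 (unadjusted p = 0.0492) without Thra1PV/+ library 1. WT library 1 also held 12600 CPM of a list of 6 smooth muscle markers, where the other WT libraries had 529 to 1090 CPM and the Thra1PV/+ libraries 125 to 638 CPM. With that list *Igfbp5* had Pearson's r = 0.806 over the 8 libraries (permutation p = 0.0177, adjusted p = 0.0784 over 90 relations). It fell to 0.238 without the farthest libraries, WT library 1 and Thra1PV/+ library 2. The part of muscle in the *Igfbp5* values was not tested.

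*Igfbp3* (ENSMUSG00000020427.11, chromosome 11, 7206086 to 7213923, minus strand), the main serum carrier of the IGFs, had 67.5, 29.3, 49.5 and 29.4 CPM in Thra1PV/+ libraries 1 to 4 and 122, 72.4, 48.0 and 35.8 CPM in WT libraries 1 to 4. WT libraries 1 and 2 were above the Thra1PV/+ libraries and WT libraries 3 and 4 were within their range. A log2 fold change of -0.66 was found (SE 0.43, 95% interval -1.64 to 0.31, edgeR adjusted p = 0.673), which was -0.20 without WT library 1.

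**Figure D2:**
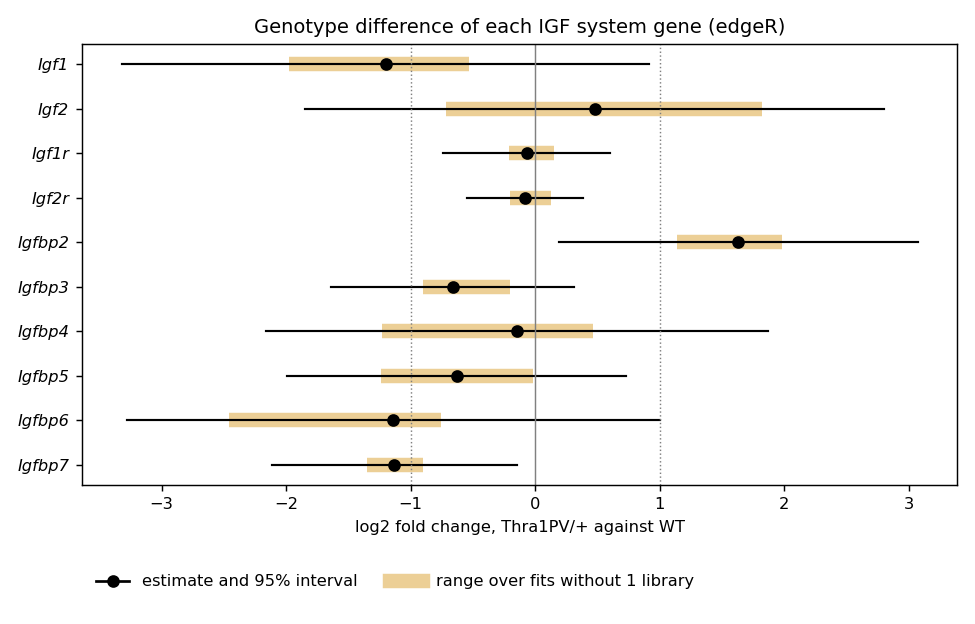
Log2 fold change of each IGF system gene, Thra1PV/+ against WT, from edgeR with its 95% interval (line) and the range of values when 1 of the 8 libraries was left out (band). The intervals of *Igfbp2* (0.19 to 3.07) and *Igfbp7* (-2.11 to -0.15) do not cross 0, neither gene was called, and the intervals of the other 8 genes cross 0.

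The spread between libraries of 1 genotype was wide for most of these genes. The within-genotype SD of log2 CPM had a median of 0.97 over the 10 genes and 0.45 over all tested genes. *Igf1* had an SD of 1.65, at the 96.3 percentile of all tested genes, with a 22.4-fold range over the 4 WT libraries and a 5.54-fold range over the 4 Thra1PV/+ libraries. *Igfbp6* had an SD of 1.60 (26.2-fold range in Thra1PV/+, 4.59-fold in WT endometrium), *Igf2* 1.57 and *Igfbp4* 1.51. The receptors stood at the other end, with an SD of 0.48 for *Igf1r* and 0.30 for *Igf2r*. The 2 ligands and *Igfbp4* and *Igfbp6* were thus among the most variable genes of these libraries, and their genotype differences were smaller than this spread.

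Levels of some of the 10 genes moved with the amount of stromal or endothelial transcript in a library, as set out below. By Pearson's r, an adjusted p-value under 0.05 was reached by 3 genes with the stromal list and 4 with the endothelial list. By Spearman's rho it was reached by 2 and 0. The share of all tested genes that would pass in this way was not computed. Among the 2 ligands, *Igfbp4* and *Igfbp6*, only *Igfbp6* passed with the stromal list, and *Igf2* passed with neither list. The mean log2 CPM of 10 stromal markers (*Pdgfra*, *Pdgfrb*, *Hoxa10*, *Hoxa11*, *Col1a1*, *Col1a2*, *Col3a1*, *Dcn*, *Lum* and *Vim*) was 8.52, 5.17, 6.25 and 6.66 in Thra1PV/+ libraries 1 to 4 and 8.93, 8.83, 6.63 and 7.39 in WT libraries 1 to 4. Thra1PV/+ library 1 and WT libraries 1 and 2 were high, Thra1PV/+ library 2 was lowest, and the genotypes overlapped. Summed levels were 570 to 6580 CPM in Thra1PV/+ and 1950 to 6380 CPM in WT endometrium. All 10 markers had a lower mean in Thra1PV/+ endometrium (median log2 fold change -0.83), and the list mean differed by -1.30 (exact permutation test, p = 0.171), from -1.92 without Thra1PV/+ library 1 to -0.80 without Thra1PV/+ library 2. The gap below the 3 high libraries was close in size to the gap above the lowest one, so the libraries were not treated as separate clusters. The mean of 6 simple epithelium markers differed by 0.07 (exact permutation test, p = 0.943), that of 6 endothelial markers by -0.35 (p = 0.571), of 6 macrophage markers by -0.05 (p = 0.943), of 4 blood markers by -1.09 (p = 0.229), of 2 tested gland markers by 0.58 (p = 0.943) and of 6 smooth muscle markers by -3.37 (p = 0.0571). The squamous list differed by 7.39 and 2 tested mesothelial markers, of which *Bnc1* is also used by basal squamous cells, by 2.52. Of these 2 mesothelial markers, 1 had a higher mean in Thra1PV/+ endometrium and was called, and 1 had a lower mean. The squamous and mesothelial lists both had the smallest value that the exact permutation test can give (p = 0.0286). After Benjamini-Hochberg adjustment over the 9 lists it was 0.129 for both, and no list had an adjusted p-value under 0.05. None of the markers of these lists was at 0 in all libraries. In bulk libraries of this kind, fewer stromal cells and less RNA per stromal cell cannot be told apart.

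Over the 8 libraries, *Igfbp6* had the highest r with the stromal list of the 10 genes, with Pearson's r = 0.986 (permutation p = 7.44e-05, adjusted p = 0.0067) and Spearman's rho = 0.976 (permutation p = 0.000397, adjusted p = 0.0342). Adjusted values here are Benjamini-Hochberg over 90 relations, each of the 10 genes with 9 marker lists. For *Igfbp7*, r was 0.923 (permutation p = 0.00119, adjusted p = 0.0268) and rho 0.857 (permutation p = 0.0107, adjusted p = 0.0802). For *Igfbp5*, r was 0.894 (permutation p = 0.000843, adjusted p = 0.0253) and rho 0.952 (permutation p = 0.00114, adjusted p = 0.0342). These 3 binding proteins kept a positive relation without the libraries farthest from the median stromal level, WT library 1 and Thra1PV/+ library 2, at r = 0.989, 0.816 and 0.767. *Igf1* had r = 0.879 (permutation p = 0.00623, adjusted p = 0.051), rho = 0.905 (permutation p = 0.00456, adjusted p = 0.0652) and r = 0.900 without those libraries. *Igfbp4* had r = 0.864 (permutation p = 0.00801, adjusted p = 0.055), rho = 0.833 (permutation p = 0.0154, adjusted p = 0.099) and 0.861 without them. The relation of *Igfbp3* (r = 0.825, permutation p = 0.0120, adjusted p = 0.060, rho = 0.786, permutation p = 0.0279, adjusted p = 0.114) fell to r = 0.695 without them. The stromal relations of *Igf1*, *Igfbp4* and *Igfbp3* thus did not reach an adjusted p-value under 0.05.

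The endothelial list, whose farthest libraries were the same 2, gave relations of like size. *Igfbp4* had r = 0.929 with it (permutation p = 0.00174, adjusted p = 0.0313, rho = 0.810, permutation p = 0.0218, adjusted p = 0.109, and r = 0.987 without those libraries). *Igf1* had r = 0.897 (permutation p = 0.00481, adjusted p = 0.0433, rho = 0.810, permutation p = 0.0218, adjusted p = 0.109, and 0.928 without them). Both were above their r with the stromal list. For *Igfbp6* r was 0.907 (permutation p = 0.00255, adjusted p = 0.0383, rho = 0.762, permutation p = 0.0368, adjusted p = 0.118, and 0.798 without them), and for *Igfbp5* 0.868 (permutation p = 0.00456, adjusted p = 0.0433, rho = 0.786, permutation p = 0.0279, adjusted p = 0.114, and 0.662 without them). For *Igfbp7* it was 0.846 (permutation p = 0.00952, adjusted p = 0.055, rho = 0.714, permutation p = 0.0576, adjusted p = 0.157, and 0.621 without them). *Igfbp3* had its highest r with the blood list (0.884, permutation p = 0.0030, adjusted p = 0.0386, rho = 0.762, permutation p = 0.0368, adjusted p = 0.118), which was 0.598 without the farthest libraries there, WT libraries 1 and 2. *Igf1* also passed with that list (r = 0.828, permutation p = 0.00464, adjusted p = 0.0433, rho = 0.881, permutation p = 0.00724, adjusted p = 0.0652, and 0.823 without those 2). By Pearson's r, an adjusted p-value under 0.05 was reached by 3 of the 10 genes with the stromal list, 4 with the endothelial list, 2 with the blood list and 1 with the simple epithelium list, and by Spearman's rho by 2, 0, 0 and 1. The share of all tested genes that would pass was not computed for any list, so these counts have no background to be read against. No test compared one list with another, so these relations are not shown to be with stroma in particular.

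*Igf1r* ran the other way, with r = -0.736 with the stromal list (permutation p = 0.0407, adjusted p = 0.118), rho = -0.738 (permutation p = 0.0458, adjusted p = 0.137) and r = -0.886 without its 2 farthest libraries. Against the simple epithelium list *Igf1r* had r = 0.785 (permutation p = 0.0216, adjusted p = 0.0845), rho = 0.857 (permutation p = 0.0107, adjusted p = 0.0802) and 0.917 without the farthest there, library 1 of each genotype. The ligand *Igf1* had r = -0.892 with the epithelial list (permutation p = 0.00732, adjusted p = 0.0549, rho = -0.762, permutation p = 0.0368, adjusted p = 0.118, and -0.882 without those 2). Neither gene's epithelial relation passed after adjustment. *Igf2* followed the epithelial list inversely (r = -0.929, permutation p = 0.000372, adjusted p = 0.0167, rho = -0.952, permutation p = 0.00114, adjusted p = 0.0342, and -0.806 without the same 2), and its r with the stromal list was 0.611 (permutation p = 0.112, adjusted p = 0.244, rho = 0.571, permutation p = 0.151, adjusted p = 0.277, and 0.629 without the 2 farthest). For *Igfbp2* and *Igf2r*, r with the stromal list was -0.20 and -0.08, neither past the permutation test (p = 0.638 and 0.856, adjusted p = 0.756 and 0.906). With the genotype means removed, r with the stromal list was 0.981 for *Igfbp6*, 0.913 for *Igfbp7*, 0.904 for *Igf1*, 0.964 for *Igfbp4* and -0.892 for *Igf1r*. It was 0.872 for *Igfbp5*, 0.869 for *Igf2*, 0.775 for *Igfbp3*, 0.242 for *Igfbp2* and -0.151 for *Igf2r*. A relation of this kind was not particular to the IGF system, since 11.4% of the 18164 tested genes outside the stromal list had r of at least 0.8 with it, and 6 of the 10 IGF genes did. Both values of a pair come from the same library and its total, and no batch is named in the labels.

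**Figure D3:**
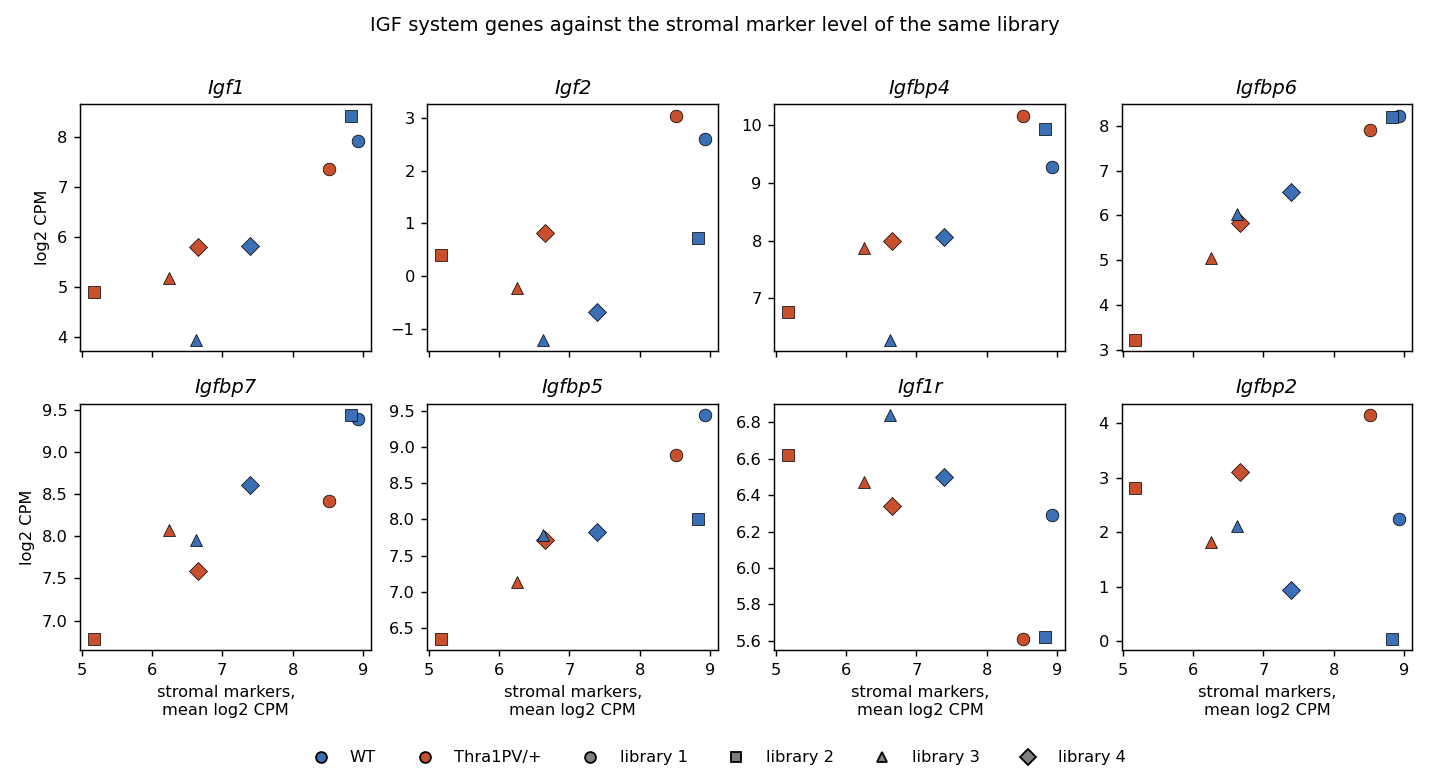
Log2 CPM of 8 IGF system genes (vertical axes) against the mean log2 CPM of 10 stromal markers in the same library (horizontal axes), for 4 WT (blue) and 4 Thra1PV/+ (orange) libraries. *Igfbp6* lies along a line through both genotypes (r = 0.986), *Igf1r* slopes downward (r = -0.736), and the orange points of *Igfbp4* lie above the blue ones at a like stromal level.

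A further scale, chosen after seeing the data, took log2 CPM minus the mean of the stromal list in the same library. It adds the list's own difference of 1.30 to every gene's genotype difference in mean log2 CPM. On it 96.7% of all tested genes were higher in Thra1PV/+ endometrium, against 45.8% in mean log2 CPM before (43.2% by edgeR's log2 fold change). A positive difference on this scale therefore follows from its construction, and the sign says nothing about a gene. *Igfbp6* had the 1 negative difference among the 10 genes (-0.45, exact permutation test, p = 0.257), and *Igfbp7* differed by 0.16 (exact permutation test, p = 0.771). *Igfbp4* had 1.65, 1.59, 1.63 and 1.34 in Thra1PV/+ libraries 1 to 4 and 0.33, 1.10, -0.35 and 0.68 in WT libraries 1 to 4. *Igfbp2* had -4.37, -2.36, -4.43 and -3.55 in Thra1PV/+ libraries and -6.69, -8.79, -4.51 and -6.45 in WT libraries. These 2 genes did not overlap between genotypes on this scale, where 4.91% of all tested genes had no overlap, 4.83% higher in Thra1PV/+ and 0.0825% lower. The other 8 genes overlapped.

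Levels were compared between genes in the deposited TPM, which allow for transcript length. *Igfbp7* ranked highest in both genotypes, at 941 ± 470 TPM (SD, n = 4) in WT and 468 ± 258 TPM (SD, n = 4) in Thra1PV/+ endometrium. In WT endometrium it was followed by *Igfbp6* (278 TPM), *Igfbp4* (206), *Igfbp5* (65.1), *Igf1* (48.4), *Igfbp3* (42.7), *Igf2r* (13.9), *Igf1r* (9.17), *Igfbp2* (3.77) and *Igf2* (1.48). The order was the same in Thra1PV/+ endometrium except that *Igfbp4* (242 TPM) stood above *Igfbp6* (133), *Igfbp3* (28.4) above *Igf1* (21.1), and *Igfbp2* (10.9) above *Igf1r* (8.81). Neighbours in both orders overlapped between libraries, except *Igfbp3* and *Igf2r* in WT and *Igf1r* and *Igf2* in Thra1PV/+ endometrium. In TPM, *Igf1* stood at 10.2, 0.699, 1.2 and 1.75 times *Igf1r* in Thra1PV/+ libraries 1 to 4, and at 6.60, 20.9, 0.543 and 1.61 times in WT libraries 1 to 4. Ligand transcript exceeded receptor transcript in 6 of the 8 libraries, and by most in the 3 with the highest stromal level.

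Summed over the 6 binding proteins, the libraries had 2110, 300, 662 and 645 TPM in Thra1PV/+ and 2170, 2410, 597 and 972 TPM in WT endometrium. *Igfbp7* made up between 38.7% and 70.5% of this sum and was the largest share in every library. *Igfbp4* made up 34.9%, 13.7%, 13.5% and 15.7% in Thra1PV/+ libraries 1 to 4 and 11.5%, 18.7%, 4.73% and 10.1% in WT libraries 1 to 4. These shares overlapped between genotypes through WT library 2. *Igfbp6* made up 4.37% to 18.4% in Thra1PV/+ and 12.5% to 20.5% in WT endometrium, with Thra1PV/+ libraries 2 and 3 below all WT libraries. Both ligands together came to 0.0184 to 0.0307 of the binding protein sum in Thra1PV/+ and 0.0116 to 0.0476 in WT endometrium, so binding protein transcripts outnumbered ligand transcripts in every library. The TPM values had been quantile-normalized, so they serve here for levels, and were tested only as an alternative to the counts.

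**Figure D4:**
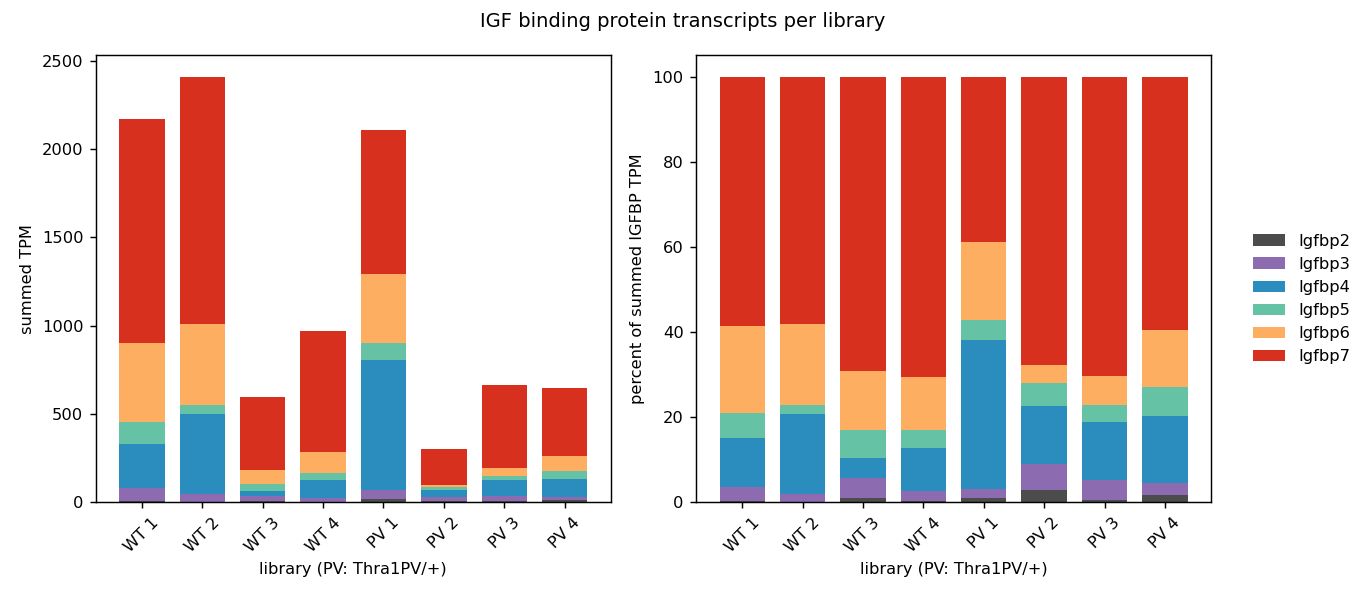
Summed TPM of the 6 binding protein genes in each library (left) and the percent of that sum held by each gene (right), as stacked bars with WT and Thra1PV/+ (PV) libraries side by side. The 3 tall bars are WT libraries 1 and 2 and Thra1PV/+ library 1, *Igfbp7* is the largest segment in all 8 libraries, and *Igfbp4* reaches 34.9% in Thra1PV/+ library 1.

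The genes whose log2 CPM was most like that of *Igf1* over the 8 libraries, among 10740 genes averaging at least 3 on that scale, were *Cd200* (r = 0.995), *Usp2* (0.995) and *1110051M20Rik* (0.986). For *Igfbp6* they were *Prnp* (0.994), *Ighm* and *Sparc* (0.988 each), for *Igfbp7* *Msantd4* (0.987), *Lrfn3* (0.98) and *Abhd17a* (0.978), for *Igfbp4* *Def8* (0.991), *Armc9* (0.991) and *Arhgap31* (0.988), and for *Igfbp2* *Taf1* (0.952), *Fmo2* (0.94) and *Scnn1b* (0.916). Among the 10 genes themselves, *Igf1* was most like *Igfbp4* (r = 0.944), *Igfbp6* most like *Igfbp7* (0.91), and *Igfbp4* ran opposite to *Igf1r* (-0.936). These values describe 8 libraries that share the genotype split and the differences in stromal level.

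A list of 31 further genes of the pathway was looked up in the same fit: other binding proteins and partners, insulin receptors, docking and adaptor proteins, the PI3-kinase and AKT branch, FOXO factors, proteases that cut binding proteins and their inhibitors, the *H19* and *Igf2* mRNA-binding genes, and growth hormone signalling. Of the 27 that could be tested, 0 were called by edgeR, limma voom also called 0, and DESeq2 called 1 of the 28 it gave an adjusted p-value. Over all genes the shares called were 0.99% in edgeR, 1.71% in limma voom and 3.64% in DESeq2. At an unadjusted p-value under 0.05, 1 of the 27 passed in edgeR, where 9.77% of all tested genes did. In all, 10 had a higher and 17 a lower mean in Thra1PV/+ endometrium, with a median log2 fold change of -0.06, and the values ran from -0.86 to 2.66. The list sat close to the median of all tested genes. Of the 4 genes not tested, *Igfbp1* (the binding protein of liver and decidua) had at most 1 count in a library, *Igf2bp3* had 0, *Igf2bp1* at most 4 and *Pappa2* at most 45.

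The gene that passed was *Igfals*, which encodes the acid-labile subunit that joins IGF and its carrier in a serum complex. It had 27, 18, 65 and 98 counts in Thra1PV/+ libraries 1 to 4 and 4, 7, 6 and 14 counts in WT libraries 1 to 4. All 4 Thra1PV/+ libraries lay above all WT libraries, though few counts lay behind each value. *Igfals* was the 1 gene of the 27 tested that had no overlap, and 3.55% of all tested genes were higher without overlap. Means were 0.976 ± 0.652 CPM (SD, n = 4) in Thra1PV/+ and 0.154 ± 0.0954 CPM (SD, n = 4) in WT endometrium. This gave a log2 fold change of 2.66 (SE 0.66, unadjusted p = 0.00352, edgeR adjusted p = 0.194, exact permutation p = 0.0286). It was not called in edgeR, and DESeq2 called it (log2 fold change 2.70, adjusted p = 0.00485). The adjusted p-value over the other alternatives that could test it ranged from 0.169 to 0.511.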

How the data were processed

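RNA from endometrium laser-captured from frozen uterine sections was made into stranded mRNA libraries. The authors trimmed reads with Trimmomatic and ran salmon on mm10 to estimate transcript counts (its version and annotation are not given in the sources used here), and they used DESeq2. They deposited estimated counts per gene without normalization for 52325 identifiers, of which 52220 matched a gene symbol, and a TPM table. The sorted values of the deposited TPM columns differed by at most 0.291 between libraries at any rank, the form that quantile normalization gives. That table holds 1 further column that matches no labelled sample and was not used. Salmon divides reads between similar or overlapping genes, and this division cannot be seen in the deposited counts.

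Counts were rounded to whole numbers, filtered with filterByExpr (minimum count 10), scaled by TMM and tested with edgeR 4.0.16 in R 4.3.3, quasi-likelihood test, with genotype as the only term. Library totals of 48791602 to 59818887 gave each tested IGF gene between 20 and 62634 counts. CPM are TMM-scaled, and log2 CPM used a prior count of 2. Positions are from GENCODE M21 (GRCm38), in which *Igf2r* has another identifier version. Alternatives were DESeq2 1.42.0, limma 3.58.1 (voom, or log2 TPM with a pseudocount of 1 or 0.1), other scalings and filters, the replicate number as a block, and each library left out. The tests were first run on simulated counts. The 10 genes, the pathway list and the marker lists were chosen with earlier results of these data known. By rule, the genes named are the 10 IGF genes and any pathway gene called or with an unadjusted p-value under 0.05. The 3 genes most like each gene described in depth are also named by rule. Pathway genes that were not tested are named outside this rule. Those under other observations were chosen after their values were seen.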

Additional observations from a re-analysis of the deposited data

Results flagged for a closer look

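*Igfbp5* in WT library 1 stood at 9.45 log2 CPM against 7.78 to 8.0 in the other 3 WT libraries, and its gap divided by the range of the group (Dixon's ratio) was 0.872, above the 95% critical value. The uterine gland marker list in Thra1PV/+ library 4 averaged 5.37 log2 CPM against 4.47 to 4.51 in the other 3 Thra1PV/+ libraries (ratio 0.955). Of its 6 markers 2 could be tested, and *Prss28*, *Prss29*, *Spink1* and *Ttr* had too few counts. Among 38 groups of 4 libraries examined, 2 exceeded the critical value, and chance gives 1.9.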

How the results depend on the processing

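The number of IGF genes called was 0 in the edgeR fit and in every alternative with a fold change and adjusted p-value threshold, and 2 at an unadjusted p-value under 0.05. For the pathway list it was 0, except 1 with DESeq2 and 1 at an unadjusted p-value under 0.05. Leaving out each library in turn gave 0 calls for both. Over all tested genes, 180 calls became 793 with DESeq2 (567 higher and 226 lower), 311 with limma voom, 81 with at least 10 counts in every library, 119 at an adjusted p-value of 0.05, 1775 at an unadjusted p-value under 0.05, and 81 (without Thra1PV/+ library 3) to 167 (without WT library 1) with each library left out. It was 116 without Thra1PV/+ library 2 and 114 without WT library 4. Other scalings moved the median log2 fold change of all genes from -0.053 to at most 0.026. The share of calls that were higher was 93.3%, and 71.5% with DESeq2 and 81.4% with limma voom.

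The replicate number as a block gave 82 calls over all genes and 0 IGF genes. Deviations of same-numbered libraries had correlations of 0.269, -0.436, 0.34 and -0.159. These do not show that the numbers pair the samples, and 4 such values cannot exclude it.

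Signs turned for *Igf1r* with library size alone (0.03), limma voom (0.07), without Thra1PV/+ library 1 and without WT library 3 (0.15 each), for *Igf2r* with limma voom (0.03) and without WT library 1 (0.13), for *Igf2* without Thra1PV/+ library 1 (-0.72), and for *Igfbp4* without Thra1PV/+ library 2, 3 or 4 (0.18, 0.06 and 0.04) or WT library 1 or 2 (0.03 and 0.46). Leave-one-out ranges were -0.21 to 0.15 for *Igf1r*, -0.20 to 0.13 for *Igf2r*, -0.72 to 1.82 for *Igf2* and -1.23 to 0.46 for *Igfbp4*. Relative to the stromal list, a scale added after seeing the data, *Igf1* (0.57), *Igf1r* and *Igf2r* (1.25 each), *Igfbp3* (0.70), *Igfbp4* (1.11), *Igfbp5* (0.55) and *Igfbp7* (0.16) turned positive. This follows from the scale, which adds 1.30 to every gene's difference in mean log2 CPM, and says nothing of these genes. Apart from that scale, *Igf1*, *Igfbp2*, *Igfbp3*, *Igfbp5*, *Igfbp6* and *Igfbp7* kept their sign in all alternatives. *Igfbp2* was already positive and could not turn on that scale, and *Igfbp6* stayed negative there (-0.45). Of the marker lists, simple epithelium (0.33 at most) turned to 0, -0.09, -0.19 and -0.08 and uterine gland to -0.48 when 1 library was left out, macrophages to 0.03 with library size alone and to 0.34 and 0.07 without 1 library (-0.38 at the lowest), and smooth muscle passed the exact permutation test without Thra1PV/+ library 4 (-3.99, p = 0.0286). Apart from the stromal scale, the cause of these changes was not tested. With 4 libraries a genotype, the 95% intervals of *Igf1*, *Igf2*, *Igfbp4* and *Igfbp6* span more than 4 log2 units, which limits what can be said of their differences.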

Other observations

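Several further genes of the pathway list are given here by role, chosen after their values were seen, and none was called in edgeR. *H19*, the maternally expressed RNA of the imprinted locus that also holds *Igf2*, had 26.5, 7.02, 3.06 and 9.30 CPM in Thra1PV/+ libraries 1 to 4 and 7.67, 1.26, 0.179 and 0.858 CPM in WT libraries 1 to 4. Library 1 was the highest of each genotype for *H19*, as it was for *Igf2*, and 3 of 4 WT libraries lay below all Thra1PV/+ libraries. Its log2 fold change was 2.20 (SE 1.10, unadjusted p = 0.0778, edgeR adjusted p = 0.576). *Htra1*, a secreted protease that cuts IGF binding proteins, had 87.1, 17.6, 43.2 and 38.7 CPM in Thra1PV/+ and 70.8, 105, 87.2 and 77.0 CPM in WT endometrium. Of the Thra1PV/+ libraries, 3 lay below all WT libraries and library 1 lay within their range, with a log2 fold change of -0.86 (SE 0.42, edgeR adjusted p = 0.565).

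*Pappa*, the protease that frees IGF1 from IGFBP4, had 7.86 CPM in Thra1PV/+ library 1 and 0.175 to 0.429 CPM in the other 3, with 1.21 to 4.33 CPM in WT endometrium. Its mutant libraries 2 to 4 thus lay below all WT libraries, while the log2 fold change of -0.34 (SE 1.21, edgeR adjusted p = 0.961) had a wide error. *Ghr*, the growth hormone receptor, had a log2 fold change of 0.30 (SE 0.15, edgeR adjusted p = 0.571) and *Insr*, the insulin receptor, of -0.39 (SE 0.22, edgeR adjusted p = 0.635).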
